A study of Drosophila melanogaster with 9 samples.

Results

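The genes described here close neuroblast fate in daughter cells or keep neurons from losing theirs, and were followed through 3 stages of a Drosophila melanogaster brain tumour. They are pros, brat, nerfin-1, lola, scrt and ttk, 6 of the 16727 gene symbols in the deposited count tables. They were chosen by symbol for their known roles, with earlier results of these data known. All 6 had enough counts to be tested. Levels are counts per 1e6 counts of a library (CPM), with library sizes scaled by TMM factors.

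Neural stem cells of the fly, called neuroblasts, divide asymmetrically. The adaptor protein Miranda carries the transcription factor Prospero (pros) and the translational repressor Brat into the smaller daughter, where Prospero represses stem cell and cell cycle genes and turns on genes of differentiation, and Brat lowers the output of growth and stem cell messages. Nerfin-1 and Lola are zinc finger factors that act later and keep young neurons from reverting towards a neuroblast state. Scratch (scrt) is a Snail family zinc finger factor that promotes neuronal fate, and Tramtrack (ttk) is a BTB zinc finger repressor best known for blocking neuronal fate in cells that are not neurons.

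The tumours came from GFP-marked flip-out clones (actinF/O>DM) in the larval central nervous system that overexpressed UAS-HA-mγ and UAS-HA-dpn, which encode repressors of the HES family. For the primary group, GFP-positive cells of these clones were taken from 3rd instar larvae 4 days after clones were induced, freed with collagenase and sorted by flow cytometry, with 150 brains pooled per replicate. The T0 group held unsorted tumour masses from the first transplantation into adult w1118 flies, and the T3 group those from the fourth, each pooled from 25 hosts per replicate after 8 to 10 days of growth. T3 masses descend from earlier transplanted masses, and the actin promoter does not restrict the transgenes to neuroblasts. All 3 groups carry the transgenes, and no brain without a tumour is used here, so no level can be set against normal tissue. Sorting, dissociation, host and growth time differ together between primary and the transplanted groups and cannot be told apart.

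Each group had 3 libraries, numbered 1, 2 and 4 in primary and T3 and 2, 3 and 4 in T0, with 7932772 to 14093032 counts each. Of 9082 genes tested, 45.6% passed an adjusted p of 0.05 in T0 against primary and 47.2% in T3 against primary, so a changed gene was common in both comparisons. The shares called higher were 22.4% in T0 and 23.1% in T3, and those called lower were 23.2% and 24.1%. The summed level of 9 neuroblast markers was 4510 to 5370 CPM in primary, 4760 to 5710 in T0 and 4500 to 5080 in T3, with all 9 markers at 1 CPM or more in each group. In T0, 3 of the 9 were called higher, with mira at 136%, grh at 172% and klu at 156% of primary. The 3 called lower were ase at 20.1%, dpn at 39.6% and wor at 62.3%. In T3 1 was higher, mira, and 3 were lower, namely ase, dpn and the Notch gene N at 62.8%, while wor was not called. The sum includes dpn, which is also a transgene. Summed levels of 10 neuron markers were 1410 to 2470, 319 to 516 and 216 to 340 CPM. Hemocyte (blood cell) markers summed to 21.3 to 35.8 CPM in primary, 108 to 525 in T0, with the top value in replicate 2, and 106 to 154 in T3. Adult fat body markers summed to 11.8 to 18.7, 100 to 245 and 11.3 to 88.7 CPM, in the same order. Ovary markers summed to 5.63 to 9.36, 7.36 to 53 and 4.7 to 16.4 CPM, with the 53 in T0 replicate 2. Glia markers summed to 530 to 688, 760 to 966 and 557 to 799 CPM, with 1 of 7 tested genes higher and 3 lower in both stages. Among them, the glial fate genes repo and gcm were at 17.8% and 17.3% of primary in T0, and at 58.6% (not called) and 18.5% in T3. Eaat1, a glial transporter gene, was at 265% and 190% and Gs2, a glutamine synthetase gene, at 9.59% and 4.95%.

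Of the 6 genes, 4 fell in T0 and 5 in T3. The transcripts of nerfin-1, scrt and pros dropped most, to between 5.39% and 12.3% of their primary level, and ttk to 24% and 19.2%. brat kept 68.3% of its primary level in T0, which did not pass the test, and fell to 51.4% in T3. lola, at 82.8% and 74.4%, passed in neither comparison. Across all tested genes, 23.2% were called lower in T0 and 24.1% in T3. The median log2 fold change of the 6 genes was -2.5 in T0 and -2.8 in T3, beside 0.011 and -3e-04 for all genes tested.

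**Figure D1:**
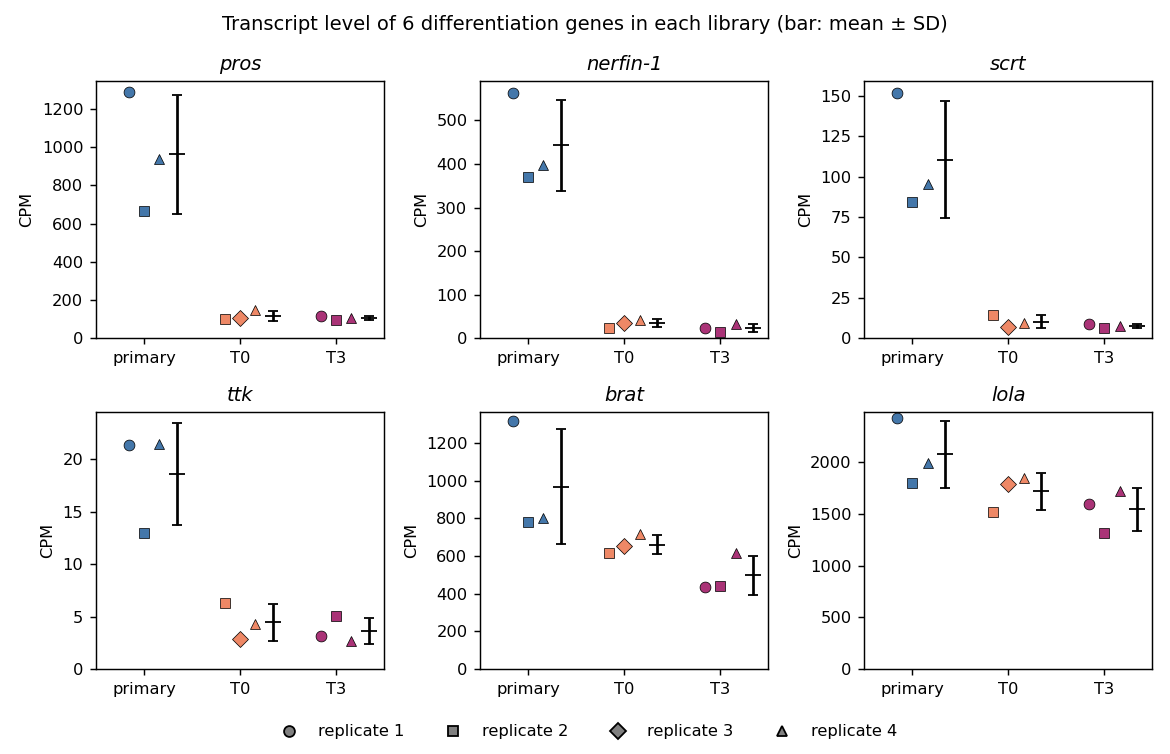
Transcript level in CPM (vertical axis, linear, from 0) of the 6 genes in each of the 9 libraries, by group (horizontal axis), with 1 symbol per replicate number and a bar for mean ± SD. For pros, nerfin-1, scrt and ttk every primary library lies far above every T0 and T3 library, while lola overlaps between primary and T0.

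Of the determinants that Miranda carries, pros (chromosome arm 3R, 11328480 to 11407627, plus strand, dm6, 6 annotated transcripts) was at 1285, 664 and 936 CPM in primary replicates 1, 2 and 4. It was at 98.6, 109 and 148 CPM in T0 replicates 2, 3 and 4, and at 118, 95.1 and 107 CPM in T3 replicates 1, 2 and 4. Every transplanted library was thus several-fold below the lowest primary library, and the T0 and T3 libraries were intermingled. The group means were 962 ± 311, 118 ± 26.1 and 106.5 ± 11.3 CPM (SD, n = 3 libraries each). In edgeR's quasi-likelihood test the log2 fold change was -3.02 ± 0.25 (SE, 95% interval -3.55 to -2.49, adjusted p = 2.89e-06) for T0 and -3.17 ± 0.25 (-3.71 to -2.63, adjusted p = 1.6e-06) for T3. In bulk samples, fewer cells that express a gene and less of its RNA per cell cannot be told apart, and this holds for every change given here.

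brat (2L, 19133816 to 19179758, plus strand, 5 transcripts) encodes an NHL domain protein whose loss itself gives neuroblast tumours. It was at 1318, 782 and 802 CPM in primary replicates 1, 2 and 4. T0 replicates 2, 3 and 4 held 615, 651 and 716 CPM, and T3 replicates 1, 2 and 4 held 435, 442 and 616 CPM. The primary libraries were all above the T0 and T3 libraries, but only replicate 1 stood far above them. For T0 the log2 fold change was -0.55 ± 0.22 (95% interval -1.02 to -0.08, adjusted p = 0.0562) and the call was missed. It was passed without primary replicate 2 (-0.68, adjusted p = 0.0418), primary replicate 4 (-0.67, adjusted p = 0.0475) or T3 replicate 4 (-0.55, adjusted p = 0.0474), in DESeq2 (-0.57, adjusted p = 0.0259) and with no filter on low counts (-0.56, adjusted p = 0.0272). Without primary replicate 1 it shrank to -0.25 (adjusted p = 0.301). The authors' deposited table gives -0.551 with an adjusted p of 0.0347. In T3 brat fell by 0.96 ± 0.22 on the log2 scale (95% interval -1.44 to -0.48, adjusted p = 0.00358), and without primary replicate 1 the change was -0.65 (adjusted p = 0.0161). A test against a change of 1.5-fold gave an adjusted p of 0.0681 for the same T3 value.

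Among the factors that keep neurons differentiated, nerfin-1 (3L, 909112 to 912319, plus strand, 1 transcript) had the most negative log2 fold change of the 6 genes in both comparisons, although without T0 replicate 2 scrt was lower in T0 (-3.74 against -3.48). Its primary libraries held 563, 370.1 and 396.5 CPM in replicates 1, 2 and 4. T0 replicates 2, 3 and 4 held 24.6, 36.1 and 43 CPM, and T3 replicates 1, 2 and 4 held 24.9, 13.7 and 32.5 CPM. The lowest primary library therefore lay above the highest transplanted one by a wide margin, and T0 and T3 overlapped. The log2 fold change was -3.68 ± 0.31 (95% interval -4.34 to -3.01, adjusted p = 3.28e-06) for T0 and -4.21 ± 0.31 (-4.9 to -3.53, adjusted p = 1.25e-06) for T3. Ordered from the most negative log2 fold change, nerfin-1 was number 389 of the 9082 genes in T0 and number 344 in T3.

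lola (2R, 10481894 to 10543291, minus strand) has 24 annotated transcripts that share a BTB domain and splice to different zinc fingers, and gene-level counts do not separate them. Primary replicates 1, 2 and 4 held 2431, 1804 and 1994 CPM. T0 replicates 2, 3 and 4 held 1519, 1788 and 1851 CPM, and T3 replicates 1, 2 and 4 held 1596, 1319 and 1718 CPM. T0 replicate 4 lay above the lowest primary library, while the T3 libraries were all below the primary ones. The log2 fold change was -0.27 ± 0.18 (95% interval -0.66 to 0.11, adjusted p = 0.228) for T0, an interval that leaves room for both a small rise and a moderate decrease. For T3 it was -0.43 ± 0.18 (-0.81 to -0.04, adjusted p = 0.0639). The T3 value passed in DESeq2 (-0.45, adjusted p = 0.0163) and in the edgeR fit without T0 replicate 2 (-0.42, adjusted p = 0.0471), and without primary replicate 1 the T0 and T3 values were -0.13 and -0.28.

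The Snail family gene scrt (3L, 3983896 to 3994003, plus strand, 2 transcripts) was at 152, 84.1 and 95.7 CPM in primary replicates 1, 2 and 4. It was at 14.6, 6.87 and 9.56 CPM in T0 replicates 2, 3 and 4, and at 9.17, 6.54 and 7.61 CPM in T3 replicates 1, 2 and 4. Again no transplanted library came near a primary one. The log2 fold change was -3.43 ± 0.29 (95% interval -4.06 to -2.8, adjusted p = 3.61e-06) for T0 and -3.82 ± 0.3 (-4.46 to -3.17, adjusted p = 1.52e-06) for T3.

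ttk (3R, 31713867 to 31735392, plus strand, 8 transcripts) encodes the repressor isoforms Ttk69 and Ttk88, which gene-level counts do not separate. It was the least abundant of the 6 genes, with 31 to 292 counts per library. Primary replicates 1, 2 and 4 held 21.3, 13 and 21.5 CPM, T0 replicates 2, 3 and 4 held 6.35, 2.84 and 4.27 CPM, and T3 replicates 1, 2 and 4 held 3.15, 5.03 and 2.65 CPM. Glia markers, given above, moved in both directions, and their part in the change of ttk was not tested. The groups were apart here too, with the largest SE of the 6 genes. The log2 fold change was -2.06 ± 0.35 (95% interval -2.82 to -1.3, adjusted p = 0.000539) for T0 and -2.38 ± 0.36 (-3.15 to -1.61, adjusted p = 0.000202) for T3.

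**Figure D2:**
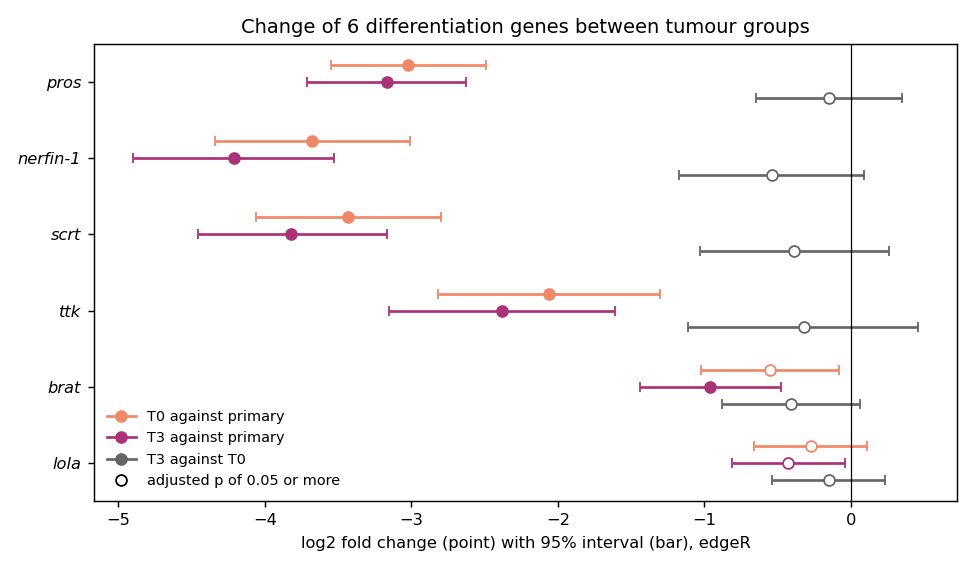
Log2 fold change (horizontal axis, point) with its 95% interval (bar) from edgeR for the 6 genes and 3 comparisons, with open points for an adjusted p of 0.05 or more. The intervals of pros, nerfin-1, scrt and ttk lie well below 0 in both transplanted stages, and every interval of T3 against T0 includes 0.

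The libraries of the 2 groups did not overlap for 5 of the 6 genes in T0 against primary, lola being the exception, and for 6 of 6 in T3 against primary. Among all genes tested this held for 54.8% and 57.9%, so the separation as such was not unusual. Primary replicate 1 had the highest level of every member but ttk, where replicate 4 was at 21.5 CPM, and also the highest neuron marker sum of the primary libraries, 2470 CPM against 1410 and 1620. Without it the log2 fold changes in T0 and T3 were -2.74 and -2.88 for pros, -3.45 and -3.98 for nerfin-1, -3.12 and -3.5 for scrt, and -1.94 and -2.24 for ttk, and all 8 calls remained.

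No member was called between the first and the fourth transplantation. The log2 fold changes of T3 against T0 were -0.15 ± 0.23 (95% interval -0.65 to 0.35) for pros, -0.41 ± 0.22 (-0.88 to 0.06) for brat and -0.54 ± 0.29 (-1.17 to 0.09) for nerfin-1. They were -0.15 ± 0.18 (-0.54 to 0.23) for lola, -0.39 ± 0.29 (-1.03 to 0.26) for scrt and -0.32 ± 0.36 (-1.11 to 0.46) for ttk. The adjusted p-values ran from 0.61 to 0.847. All 6 estimates were below 0, with a median of -0.35 against -0.013 for all genes. They come from the same libraries and are not independent of each other. Medians were also below 0 for the neuron markers (-0.31) and the genes that Prospero raises (-0.49, listed below). For the Snail family list the median was 0.22. The intervals of the 6 genes do not exclude a further decrease of 0.54 to 1.17 on the log2 scale, depending on the gene. Across the genome edgeR called 0 of 9082 genes (0%) in this comparison, with 746 at an unadjusted p under 0.05 and a smallest adjusted p of 0.33. DESeq2 called 13 and limma-voom 0. The authors' deposited table calls 26 of 8958 genes, none of them a member. In that deposited table of the authors, nerfin-1 has an unadjusted p of 0.0446 and an adjusted p of 0.554 here.

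Per kilobase of the exons of all annotated transcripts together, and per 1e6 counts (RPKM), nerfin-1 was the most abundant of the 6 in primary cells at 138 ± 32.5. It was followed by lola at 83.4 ± 12.9, brat at 75.7 ± 23.8, pros at 38.6 ± 12.5, scrt at 12.2 ± 3.99 and ttk at 2.46 ± 0.643. lola and brat overlapped in this order (72.4 to 97.7 and 61.2 to 103), and the other neighbours did not. Overlaps lower in the order were those of scrt and ttk in T0 and of nerfin-1 and pros in T3. In T0 the order was lola at 69.1 ± 7.08, brat at 51.7 ± 4.01, nerfin-1 at 10.8 ± 2.89, pros at 4.76 ± 1.05, scrt at 1.14 ± 0.434 and ttk at 0.593 ± 0.233, and T3 kept that order with 62 ± 8.22, 38.9 ± 8.02, 7.38 ± 2.94, 4.28 ± 0.453, 0.857 ± 0.145 and 0.478 ± 0.166. So nerfin-1 went from the first place to the third on this scale. The order depends on the length used. The exons of lola span 24895 bases together but 4623 in its longest transcript. By longest transcript lola was first in all groups, at 449 ± 69.6 RPKM in primary, 372 ± 38.1 in T0 and 334 ± 44.3 in T3. On that scale nerfin-1 came after lola in primary, at 138 ± 32.5. The transcripts of pros run from 5526 to 23486 bases and those of brat from 4544 to 12088, so their places are also open.

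Exons of brat, lola and pros overlap those of other genes. The strand setting of the counting is not given in the sources used here, so reads of antisense genes could be shared. brat shares 135 exon bases with the antisense lncRNA:CR44977, which had 29 to 196 counts against 3511 to 18056 for brat. lola shares 2046 exon bases with pre-lola-G, which had 3 to 47 counts against 10483 to 33294 for lola. Both lie on the same strand, so no strand setting would separate their reads there. pros shares 72 exon bases with the antisense lncRNA:CR46008, which has no line in the deposited counts.

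Because neuron markers fell with these genes, the 4 called in both comparisons were also expressed per 100 counts of a neuronal gene in the same library. Of the neuron markers, 9 of 10 were called lower in T0 and 10 of 10 in T3, against 23.2% and 24.1% of all tested genes. Their median log2 fold changes were -3.3 and -3.7. The result depended on which neuronal gene was the reference. Against elav, the pan-neuronal RNA-binding protein gene, pros was at 153, 139 and 149 counts per 100 in primary replicates 1, 2 and 4, at 55.2, 82.1 and 77.3 in T0 replicates 2, 3 and 4, and at 92.8, 106 and 78.7 in T3 replicates 1, 2 and 4. nerfin-1 per 100 elav counts was 66.9, 77.7 and 63 in primary, 13.8, 27.2 and 22.4 in T0, and 19.6, 15.2 and 23.9 in T3. So both were lower relative to elav in every transplanted library. The log2 differences from primary were -1.06 and -0.68 for pros, -1.76 and -1.84 for nerfin-1 and -1.51 and -1.35 for scrt, in T0 and T3. For ttk they were -0.16 and 0.07, with overlapping groups (exact permutation p = 0.6 and 1).

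Against nSyb, the gene of the synaptic vesicle protein neuronal synaptobrevin, which marks mature neurons, the same genes were higher in the transplanted masses. pros was at 1090, 793 and 973 counts per 100 nSyb counts in primary replicates 1, 2 and 4, at 2290, 2970 and 3800 in T0 replicates 2, 3 and 4 and at 3150, 3780 and 2020 in T3 replicates 1, 2 and 4. The log2 differences were 1.65 and 1.61 for pros, 0.95 and 0.45 for nerfin-1, 1.2 and 0.94 for scrt and 2.55 and 2.36 for ttk. These ratios rest on few nSyb counts, 20 to 62 per transplanted library against 1025 to 1619 per primary library. Their size is thus uncertain, with ttk per 100 nSyb counts at 84.3, 200 and 50 in T3 replicates 1, 2 and 4. nSyb itself had a log2 fold change of -4.65 in T0 and -4.66 in T3, and elav of -1.95 and -2.46. The decreases of pros, nerfin-1 and scrt thus lay between those of these 2 neuronal genes. Whether a smaller share of neurons accounts for the decrease was not tested.

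Relative to mira, which encodes the Miranda adaptor, pros was at 68.2, 35.5 and 53.7 counts per 100 in primary replicates 1, 2 and 4. It was at 4.18, 3.89 and 6.37 in T0 replicates 2, 3 and 4 and at 4.83, 3.92 and 4.48 in T3 replicates 1, 2 and 4. brat per 100 mira counts was 70, 41.8 and 46 in primary, 26.1, 23.3 and 30.8 in T0 and 17.8, 18.2 and 25.8 in T3. The pros and brat transcripts were therefore lower per mira transcript in all 6 transplanted libraries. Their log2 differences were -3.43 and -3.53 for pros and -0.95 and -1.34 for brat, in T0 and T3. These are RNA counts of whole samples, so they do not measure the protein that Miranda carries. The ratios also hold the change of mira itself, 0.44 in T0 and 0.4 in T3 on the log2 scale. brat alone was at -0.55 (not called) and -0.96. The part of a changed mix of cells was not tested. Of 20 such ratio comparisons, 18 had groups that did not overlap, each with an exact two-sided permutation p = 0.1, the smallest that 3 against 3 libraries allow, and 0.111 after Benjamini-Hochberg adjustment over the 20.

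**Figure D3:**
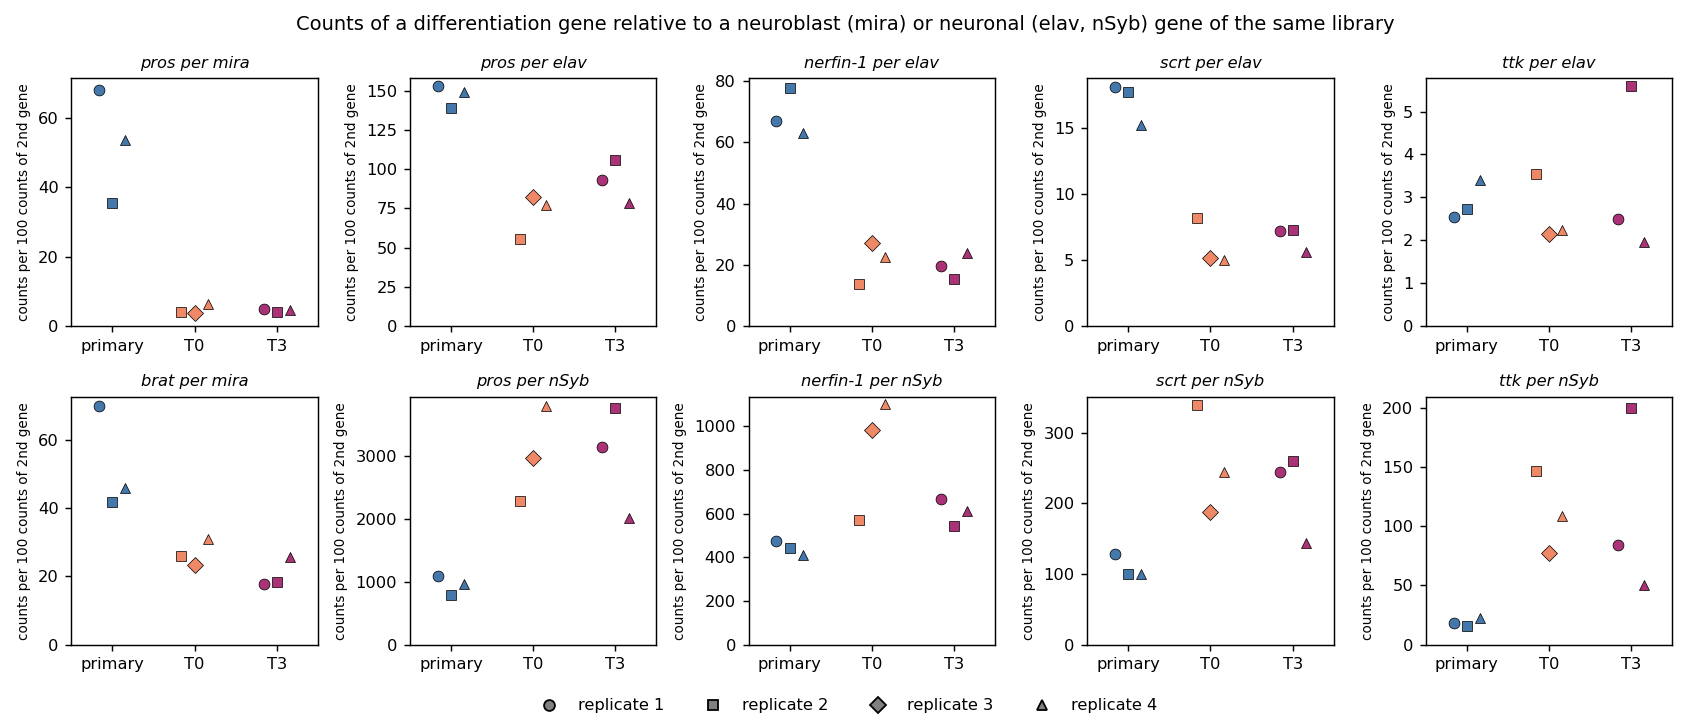
Counts of a differentiation gene per 100 counts of a second gene in the same library (vertical axis, linear, from 0), by group, with 1 symbol per replicate number. Relative to mira and elav the transplanted libraries lie below primary, except for ttk per elav, and relative to nSyb they lie above.

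The genes around pros were described by lists. The delivery list holds 13 genes of the adaptor, polarity and spindle machinery that places Prospero in the daughter cell, and all 13 were tested. In T0, 4 rose and 2 fell, with a median log2 fold change of 0.098, and in T3, 3 rose and 2 fell, with a median of -0.078. Of all genes tested, 22.4% were called higher and 23.2% lower in T0, and 23.1% and 24.1% in T3, so most of these counts are near the background. stau, whose RNA-binding protein carries pros mRNA, rose by 1.26 ± 0.22 in T0 (adjusted p = 0.000757) and by 0.88 ± 0.22 in T3 (adjusted p = 0.00633). The polarity gene l(2)gl rose by 0.81 ± 0.15 and 0.59 ± 0.15 (adjusted p = 0.00118 and 0.00756). Galphai, of the spindle orientation complex, fell by 0.81 ± 0.17 and 0.75 ± 0.16 (adjusted p = 0.00186 and 0.00276). mira was at 1834 ± 78, 2491 ± 262 and 2418 ± 26.4 CPM, and rose by 0.44 ± 0.15 and 0.4 ± 0.15 (adjusted p = 0.0304 and 0.0458).

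The mira calls were not firm. In T0 its adjusted p ranged from 0.0709 to 0.137 when primary replicate 2 or 4 or T0 replicate 3 was left out, and in T3 it was 0.0596 to 0.139 without any single library other than T0 replicates 2 and 4, and 0.0543 with RLE scaling of all 9 libraries. The polarity kinase gene aPKC rose by 0.5 ± 0.16 in T0 (adjusted p = 0.0234), a call lost when primary replicate 2 or 4 or T0 replicate 4 was left out (adjusted p = 0.0678 to 0.0854). It was not called in T3 (0.32 ± 0.16, adjusted p = 0.114), where it passed without T3 replicate 2 (0.48, adjusted p = 0.0271). pins, of the spindle complex, fell by 0.45 ± 0.13 and 0.36 ± 0.13 (adjusted p = 0.0133 and 0.0367). Its T0 call was lost without primary replicate 4 (-0.4, adjusted p = 0.0538), and its T3 call without any primary library, T0 replicate 3, T3 replicate 2 or T3 replicate 4 (adjusted p = 0.0516 to 0.142). The list's count of risers in T0 dropped to 2 without primary replicate 2 or 4.

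Of 8 genes that Prospero is known to repress, 1 rose and 4 fell in T0, and 1 rose and 3 fell in T3, where DESeq2 called 5 lower. The background shares were 22.4% higher and 23.2% lower in T0 and 23.1% and 24.1% in T3. The median log2 fold changes were -0.41 and -0.46. ase, a proneural gene of neuroblasts, fell by 2.31 ± 0.22 in T0 (adjusted p = 7.49e-06) and by 2.12 ± 0.21 in T3 (adjusted p = 1.1e-05), from 195 ± 24.3 to 39.3 ± 7.47 and 44.6 ± 13.5 CPM. dpn, also a transgene of these tumours whose endogenous and transgenic counts are not separated, fell by 1.34 ± 0.2 and 1.39 ± 0.2 (adjusted p = 0.000218 and 0.000143). stg, the mitosis-promoting phosphatase gene, fell by 0.74 ± 0.27 in T0 (adjusted p = 0.0393) and by 1.3 ± 0.27 in T3 (adjusted p = 0.00213). The T0 call of stg was lost without primary replicate 1 (adjusted p = 0.189), primary replicate 2 (adjusted p = 0.0609) or T0 replicate 2 (adjusted p = 0.12).

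wor, a Snail family gene of neuroblasts in the same list, fell by 0.68 ± 0.19 in T0 (adjusted p = 0.0124), a call lost without primary replicate 4 (-0.58, adjusted p = 0.0549). In T3 it was at -0.47 ± 0.19 (adjusted p = 0.0644), and passed without T0 replicate 2 (-0.46, adjusted p = 0.0273) or T3 replicate 1 (-0.6, adjusted p = 0.0444) and in DESeq2 (-0.48, adjusted p = 0.0303). The riser was mira, with the limits given above. The cell cycle genes CycE and E2f1 passed in neither comparison, with log2 fold changes of -0.11 and -0.19 for CycE and -0.13 and -0.45 for E2f1. Of the genes that Prospero represses, mira was thus the only one called higher in either stage.

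Of 8 genes that Prospero is known to raise, 7 fell in both T0 and T3, where 23.2% and 24.1% of all tested genes fell, with median log2 fold changes of -2.6 and -3. NetB, an axon guidance ligand gene, fell by 3.4 ± 0.21 (adjusted p = 3.53e-07) and 4.15 ± 0.22 (adjusted p = 1.35e-07). dap, the gene of a cyclin-dependent kinase inhibitor that ends the cell cycle, was at 111 ± 18.5, 14.6 ± 3.91 and 14.3 ± 6.32 CPM, and fell by 2.92 ± 0.28 and 2.94 ± 0.28 (adjusted p = 9.02e-06 and 7.55e-06). fax, which acts in axon growth, went from 1567 ± 344.5 to 250.6 ± 46.5 and 179 ± 27.7 CPM (log2 fold change -2.64 ± 0.21 and -3.13 ± 0.21, adjusted p = 2.39e-06 and 6.94e-07). The neuronal factor genes zfh1 and Lim1 fell too, with log2 fold changes of -2.55 ± 0.27 and -2.67 ± 0.3 in T0 and -3.39 ± 0.29 and -3.16 ± 0.31 in T3. The adhesion genes Fas1 and Fas2 fell by 0.99 ± 0.24 and 1.65 ± 0.26 in T0 and by 1.18 ± 0.24 and 2.39 ± 0.27 in T3. The remaining gene, enc, was at 384 ± 86.2, 442 ± 35 and 353 ± 54.4 CPM, with no call in T0 or T3. Most of these genes are also expressed in neurons, and the neuron marker sums given above moved the same way. Their part in the decrease was not tested.

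**Figure D4:**
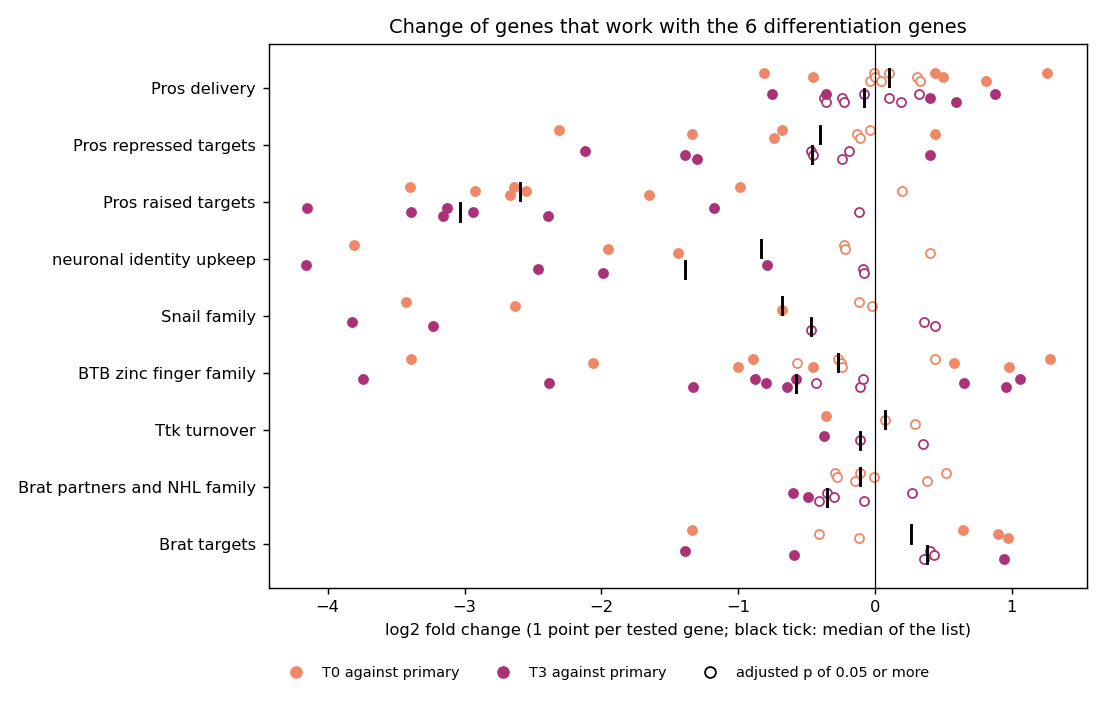
Log2 fold change (horizontal axis) of every tested gene of 9 lists of genes that work with the 6 members, in T0 and T3 against primary, with open points for an adjusted p of 0.05 or more and a black tick at the median of the list. The genes that Prospero raises lie at a median of -2.6 and -3, away from its repressed targets at -0.41 and -0.46.

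Of 6 genes that act beside nerfin-1 and lola in neuronal identity, 3 fell in T0 and 4 in T3, and none rose, where all tested genes gave 23.2% and 24.1% lower and 22.4% and 23.1% higher. elav fell by 1.95 ± 0.23 (adjusted p = 4.68e-05) and 2.46 ± 0.24 (adjusted p = 8.15e-06). ham, which controls neuronal subtype and dendrite form, fell by 1.44 ± 0.29 and 1.99 ± 0.3 (adjusted p = 0.00167 and 0.000199). nerfin-2, the paralogue of nerfin-1, was scarce in primary at 2.29 ± 0.52 CPM and fell in both stages (log2 fold change -3.81 ± 0.66 and -4.16 ± 0.68, adjusted p = 0.000613 and 0.000383). sd, whose protein can pair with Nerfin-1, was at 302 ± 54.2, 257 ± 42.1 and 175 ± 26.8 CPM. It was not called in T0 (-0.23 ± 0.18) and fell by 0.79 ± 0.18 in T3 (adjusted p = 0.00355). onecut and mdlc were not called in either stage, with onecut at 218 ± 53.1, 288 ± 59.2 and 205 ± 51.1 CPM and mdlc at 34.5 ± 1.65, 29.6 ± 1.41 and 32.7 ± 0.962 CPM.

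In the Snail family list, which includes scrt, 5 of 6 genes were tested, of which 3 fell in T0 and 2 in T3, where 23.2% and 24.1% of all tested genes fell. CG12605, listed with this family, fell by 2.63 ± 0.31 and 3.23 ± 0.32 (adjusted p = 4.39e-05 and 1.05e-05). sna and esg, which act in embryonic and neuroblast development, were not called, although 1 gene of the list was higher in T3 with no filter, with the replicate block and without T3 replicate 4. sna was at 85.9 ± 20.1, 79.1 ± 5.46 and 110.3 ± 22.8 CPM and esg at 43.7 ± 6.97, 43.1 ± 5.34 and 59.2 ± 14.4 CPM. Kah had too few counts for a test.

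The BTB zinc finger list, which includes lola and ttk, held 3 genes that rose and 5 that fell of 13 in T0, and 3 that rose and 7 that fell in T3. The count of genes lower in T0 was 3 when primary replicate 1, T0 replicate 2 or T0 replicate 4 was left out, and that in T3 was 4 without T3 replicate 2. bab2, a patterning gene, fell by 3.39 ± 0.29 and 3.74 ± 0.3 (adjusted p = 3.86e-06 and 1.88e-06). ab, a factor of neuronal dendrite form, fell by 1 ± 0.26 and 1.33 ± 0.26 (adjusted p = 0.00703 and 0.00133). In the other direction, fru rose by 1.28 ± 0.14 and 0.96 ± 0.14 (adjusted p = 2.56e-05 and 0.000165), chinmo, a gene of young neuroblasts and early-born neurons, by 0.98 ± 0.17 and 1.06 ± 0.17 (adjusted p = 0.000685 and 0.000357), and ken by 0.58 ± 0.14 and 0.65 ± 0.14 (adjusted p = 0.00564 and 0.00261). These counts stand beside 22.4% of all tested genes called higher and 23.2% lower in T0, and 23.1% and 24.1% in T3, so the counts of genes that rose are near the background.

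Of the genes that act in turnover of Ttk protein, sina, phyl and ebi were tested, and sinah had too few counts. sina was at 132 ± 16, 138 ± 5.82 and 122 ± 19.6 CPM and phyl at 57.3 ± 10.3, 70.1 ± 17.1 and 73 ± 14.8 CPM, and neither was called. ebi fell by 0.36 ± 0.13 and 0.37 ± 0.13 (adjusted p = 0.0363 and 0.0302). Its T0 call held only without primary replicate 4 among the fits that left out 1 library (adjusted p = 0.051 to 0.129 in the other 8). The T3 call was lost without primary replicate 1 or 2 or without any T3 library (adjusted p = 0.0536 to 0.125).

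Brat represses messages together with the RNA-binding protein Pumilio and the cap-binding protein 4EHP. Of 8 partner and NHL family genes 7 were tested, with none called in T0, where 45.6% of all tested genes were called. In T3, 2 were lower, which is near the 24.1% of all tested genes. In T0, 1 gene of the list rose with no filter, with the replicate block and without primary replicate 1. eIF4EHP was at 83.4 ± 7.45, 68.3 ± 3.97 and 59.3 ± 6.42 CPM and fell by 0.49 ± 0.13 in T3 (adjusted p = 0.00763). pum fell by 0.6 ± 0.2 in T3 (adjusted p = 0.0291), a call lost without primary replicate 1, T3 replicate 1 or T3 replicate 2 (adjusted p = 0.0808 to 0.165). Its T0 value of -0.11 ± 0.2 became 0.12 without primary replicate 1.

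Among 6 tested of 7 messages known to be held down by Brat, 3 rose and 1 fell in T0, and 1 rose and 2 fell in T3. All tested genes gave 22.4% higher and 23.2% lower in T0 and 23.1% and 24.1% in T3, and the T3 counts are near those shares. Myc, the growth regulator gene, was at 221 ± 57.5, 411.5 ± 119 and 423 ± 17.6 CPM and rose by 0.9 ± 0.22 and 0.94 ± 0.22 (adjusted p = 0.00581 and 0.00444). zld, a stem cell factor that Brat represses, was at 392.5 ± 83, 769 ± 60.5 and 516 ± 135 CPM. It rose by 0.97 ± 0.21 in T0 (adjusted p = 0.00245) and was not called in T3 (0.4 ± 0.21, adjusted p = 0.133). klu, a neuroblast zinc finger gene, rose by 0.64 ± 0.2 in T0 (adjusted p = 0.0183), and lost the call when primary replicate 2 or 4 or T0 replicate 3 or 4 was left out (adjusted p = 0.0566 to 0.0824). In T3 klu was at 0.43 ± 0.2 (adjusted p = 0.0885) and passed without primary replicate 1 (0.66, adjusted p = 0.0193). The genes that fell were dpn, a transgene here, and in T3 the cyclin gene CycB3 (by 0.59 ± 0.21, adjusted p = 0.0338), whose call was lost without primary replicate 1 or 2 or T3 replicate 1 or 2 (adjusted p = 0.0837 to 0.141).

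The 6 members fell into looser and tighter pairs over the 9 libraries. These are descriptions only, since the libraries come from 3 groups and any gene that differs between primary and transplanted masses correlates with any other. Pearson's r of log2 CPM was 0.984 for pros and nerfin-1, 0.978 for pros and scrt, 0.964 for nerfin-1 and scrt, and 0.956 for scrt and ttk. lola and brat had r = 0.92 with each other, and lola and ttk had the lowest value, 0.598. Among named genes whose mean level reached 5 CPM, those most like pros were dpr19, ari-2 and dock, each with r = 0.997. For nerfin-1 they were VAChT and mspo at 0.995 and rad at 0.994, and for scrt rn, tutl and Appl at 0.996. For ttk they were GlcAT-P at 0.984, Tl at 0.978 and Dhit at 0.976. brat was most like Gprk2 at 0.996, east at 0.993 and Nup153 at 0.992, and lola most like pr-set7 and nsl1 at 0.972 and cg at 0.968. The means of the genes nearest to brat changed as little as brat itself, with Gprk2 at 138, 94.2 and 73.9 CPM, while VAChT went from 35.3 to 2.11 and 1.36 CPM.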

How the data were processed

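RNA-seq of 9 libraries was used, 3 per group as the labels group them. Per the labels, polyadenylated RNA was amplified with 13 PCR cycles and read as single 75 nt reads. Alignment build dm6 and the tools edgeR, HTSeq, bedtools 2.25.0 and HISAT2 2.1.0 are listed in the submitters' processing notes. The annotation and strand options were not given in the sources used here. In 3 tables, the authors deposited the same raw read counts per gene, and 9 further per-sample value columns per table were not used. Each deposited table also holds the authors' log2 fold changes and their unadjusted and adjusted p-values, which are quoted only as theirs. Lines with an empty gene symbol numbered 0. Libraries held 7932772 to 14093032 counts. Chi-square statistics between replicates, per degree of freedom, were 14.5 to 72.5, so none is a repeat of another. Each library is a pool of animals, so the p-values reflect how these pools vary.

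The tests on counts used edgeR 4.0.16 under R 4.3.3 (TMM scaling, filterByExpr at 10 counts, a single fit of 9 libraries with a mean per group, quasi-likelihood test, two-sided). The code was also run on simulated counts with far fewer changed genes, changed in T0 only. That run does not test the scaling or the error rate where so many genes change. Benjamini-Hochberg adjustment covered all 9082 genes tested, with a threshold of 0.05. SE is the log2 fold change divided by the square root of F. Correlations used log2 CPM with a prior count of 2. RPKM divide CPM by exon length from the Ensembl annotation of dm6, which also gave positions. The synonyms by which pins, E2f1, eIF4EHP, zld, Myc, Col4a1 and apolpp were matched came from a RefSeq gene list. Alternatives were other scaling and filters, DESeq2 1.42.0, limma-voom (limma 3.58.1), 6-library fits, a replicate block, a 1.5-fold test, and leaving out each library.

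The members and lists were chosen with earlier results of these data known, and the ratios to elav, nSyb and mira were added after the data were seen. Named beside the members are, per list and comparison, up to 4 called genes with the smallest adjusted p, up to 2 uncalled ones with the smallest p, and further list genes where a sentence needed them.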

Additional observations from a re-analysis of the deposited data

How the results depend on the processing

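pros, nerfin-1, scrt and ttk kept their direction and call in T0 and T3 against primary under all 18 alternatives, with log2 fold changes of -3.23 to -2.74 and -3.38 to -2.88 for pros, -3.86 to -3.45 and -4.5 to -3.94 for nerfin-1, -3.74 to -2.97 and -3.98 to -3.5 for scrt, and -2.37 to -1.82 and -2.67 to -2.2 for ttk. brat in T0 was called with no filter (-0.56), in DESeq2 (-0.57) and in 3 fits that left out 1 library, over which it ran from -0.68 to -0.25. brat in T3 lost its call in the 1.5-fold test (-0.96, adjusted p = 0.0681). lola in T3 was called in DESeq2 (-0.45), and leaving out 1 library it ran from -0.52 to -0.28. pros in T3 against T0 was -0.34 with the replicate block, ran from -0.27 to 0.04 leaving out 1 library and changed sign without T0 replicate 4. pum in T0 ran from -0.23 to 0.12 leaving out 1 library and changed sign without primary replicate 1. Genes called in T3 against T0 were 96 with no filter, 13 in DESeq2, 5 with the replicate block and 0 to 5 leaving out 1 library, with 5 without T3 replicate 2. The 1.5-fold test called 1898 genes in T0 and 2006 in T3. The causes were not tested. Libraries of the same replicate number in different groups correlated at -0.0566 to 0.256, within the range of -0.445 to 0.331 for unlike numbers. Pairing by number was thus not seen, but so few pairs cannot exclude it. With the replicate block the T0 and T3 values were -2.79 and -3.13 for pros, -0.43 and -0.93 for brat, and no member's call changed. Of 88 results of other named genes, 51 kept call and direction under all alternatives. The planned search for promoter motifs was not run. Depth limits ttk most, at 31 to 292 counts per library.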
